A study of Mus musculus with 24 samples.

Results

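The comparison described here asks whether the change in liver RNA with loss of Rab30 depended on whether Cpt2 was present. Its members are the 16 livers of a 2 × 2 design, of 24 livers sequenced in all, and it was read across the 14063 genes that passed a filter on low counts. All 16 livers came from male mice of 8 to 10 weeks that had been fasted for 24 h. The 4 livers labelled ff;ff came from mice in which both Rab30 and Cpt2 were flanked by loxP sites and no Cre was present, and they were littermates of the double knockouts. The 4 livers labelled Rab30 L-/- lacked Rab30 in the liver, the 4 labelled Cpt2 L-/- lacked Cpt2 in the liver, and the 4 labelled DKO lacked both. Recombination was driven by Cre from the albumin promoter, which acts in hepatocytes and leaves the other liver cells with both genes. The whole-body knockout livers and their controls, 8 in number, entered only an alternative fit over all 24 livers and are otherwise given as context.

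The interaction is the log2 fold change of DKO against Cpt2 L-/- less the log2 fold change of Rab30 L-/- against ff;ff. A value above 0 means that the step with Rab30 loss was more positive where Cpt2 was also lost, and a value below 0 that it was more negative there. Written out by group, it is the sum of DKO and ff;ff less the sum of the 2 single knockouts. The labels make ff;ff littermates of DKO and name no such tie for the single knockouts, so whatever those litters share cannot be told apart from an interaction of the 2 genes. Levels are given in CPM, the count relative to the TMM-scaled library total, which is not divided by gene length, so levels are compared between livers and not between genes. The 4 livers of a group are separate animals.

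Rab30 is a small GTPase that cycles on Golgi membranes. Such Rab proteins recruit effectors that tether and move vesicles, and the hepatocyte depends on this traffic to secrete albumin, lipoproteins and clotting factors. Cpt2 is the inner-membrane enzyme that returns long-chain acyl groups to CoA in the mitochondrial matrix, the last step before β-oxidation. A fasted liver without it cannot burn the long-chain fatty acids that reach it from adipose tissue or make ketone bodies from them, and Pparα, the receptor that senses fatty acids, drives its target genes strongly.

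The counts over the whole of each targeted gene did not follow the labels. Cpt2 was at 130, 143, 135 and 130 CPM in ff;ff, at 275, 217, 223 and 172 CPM in Rab30 L-/-, at 97.1, 119, 166 and 129 CPM in Cpt2 L-/- and at 99.9, 97.5, 107 and 120 CPM in DKO. Its livers labelled as lacking Cpt2 therefore still held reads of the gene, and the highest group was Rab30 L-/-. The interaction of Cpt2 was -0.99 (standard error 0.22, edgeR adjusted p = 0.0191). Rab30 was at 26.2, 46.0, 45.4 and 31.6 CPM in ff;ff, at 19.7, 10.5, 26.3 and 12.5 CPM in Rab30 L-/-, at 124, 131, 187 and 150 CPM in Cpt2 L-/- and at 133, 102, 235 and 183 CPM in DKO. Its interaction of 1.25 did not pass the test (standard error 0.41, edgeR adjusted p = 0.0951, and among the edgeR fits without 1 liver 0.0463 without Rab30cff979 and over 0.05 in the others), while DESeq2 and limma-voom called it (lowest adjusted p = 0.0250). A transcript that lacks 1 exon can still be counted on the rest of its gene, so libraries are named here by their labels.

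Of the 14063 genes, 571 were called in the interaction, which is 4.06% of those tested, with 310 above 0 (2.2%) and 261 below 0 (1.86%). A gene was called with a Benjamini-Hochberg adjusted p under 0.05 over all genes in edgeR's quasi-likelihood test and an interaction of at least 1.2-fold, and at these thresholds the DKO livers differed from Cpt2 L-/- in 180 genes (1.28%), 100 higher (0.711%) and 80 lower (0.569%). The Rab30 L-/- livers differed from ff;ff in 170 genes (1.21%), 99 higher (0.704%) and 71 lower (0.505%). Over all tested genes the median interaction was -0.01 on the log2 scale, and among the called genes the median size was 1.31. Leaving out 1 liver moved the count to between 300 and 679. The calls fell to 300 without Cpt2802, 328 without DKO233, 339 without Cpt2801, 349 without Rab30cff978, 362 without Rab30cff980 and 365 without Cpt2166. In each of the 16 fits without 1 liver 227 of the 571 genes remained called.

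Among the 571 called genes, 475 (83.2%) had steps of at least 1.2-fold in opposite directions, against 2101 of the 14063 tested (14.9%), a share that the choice of genes by their interaction largely fixes. In 30 of the 571 both steps with Rab30 loss were themselves called, in 100 only DKO against Cpt2 L-/-, in 91 only Rab30 L-/- against ff;ff, and in 350 neither was. For 126 of the called genes (22.1%) the livers of neither pair overlapped, compared with 166 of all tested genes (1.18%), the called ones included. The choice of genes by their interaction largely fixes this share too. Read the other way, as the step with Cpt2 loss, 85 of the called genes had 2 called steps in opposite directions, 227 a called step only from ff;ff to Cpt2 L-/- and 207 only from Rab30 L-/- to DKO. The step with Cpt2 loss alone moved far more genes, 3665 (26.1%) without and 4213 (30%) with Rab30 loss.

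**Figure D1:**
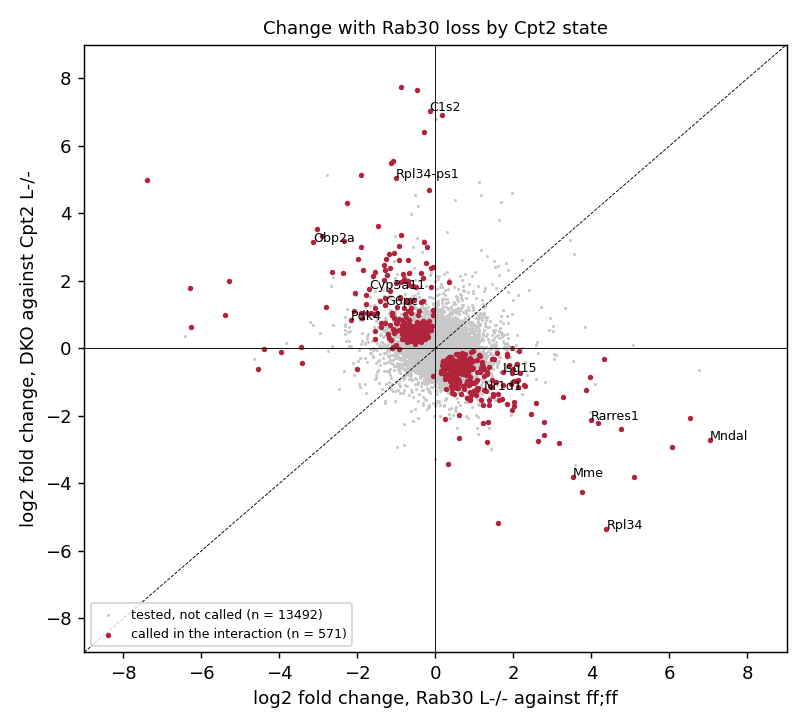
Each point is 1 of the 14063 genes tested, with the log2 fold change of Rab30 L-/- against ff;ff on the x axis and that of DKO against Cpt2 L-/- on the y axis (4 livers per group). The 571 genes called in the interaction, in red, lie away from the dashed line of equal change, which is how they were chosen, and named genes such as Cyp3a11 and Nr1d1 sit in opposite quadrants.

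The gene lists differed in how many of their members were called. The highest shares were 27.8% for the circadian clock (5 of 18 tested), 21.7% for gluconeogenesis and glucose entry (5 of 23), 21.1% for the pericentral Wnt targets (4 of 19), 17.6% for lipid droplets and lipolysis (3 of 17) and 17.5% for the interferon-induced genes (7 of 40), beside 4.06% over all genes. The share of Ppara target genes was 2.94% (1 of 34, Pdk4), with 12 at an unadjusted p under 0.05 and 1 to 7 calls over the fits without 1 liver. This share depended on the tool, since DESeq2 called 5 of the 34 (14.7%, against 7.68% of all genes) and limma-voom 9 (26.5%, against 9.2% of all genes). No nuclear gene of oxidative phosphorylation was called among 48 tested by edgeR, with 4 at an unadjusted p under 0.05 and 0 by DESeq2 and 0 by limma-voom. For the 7 tested genes of ketone body synthesis and export edgeR called 0, with 1 at an unadjusted p under 0.05, 0 by DESeq2 and 1 by limma-voom. The 24 cholesterol genes gave 0 calls by edgeR, 4 at an unadjusted p under 0.05, 1 by DESeq2 and 0 by limma-voom. The 35 genes of ER chaperones, the unfolded protein response and ERAD gave 0 by edgeR, 12 at an unadjusted p under 0.05, 2 by DESeq2 and 5 by limma-voom.

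**Figure D2:**
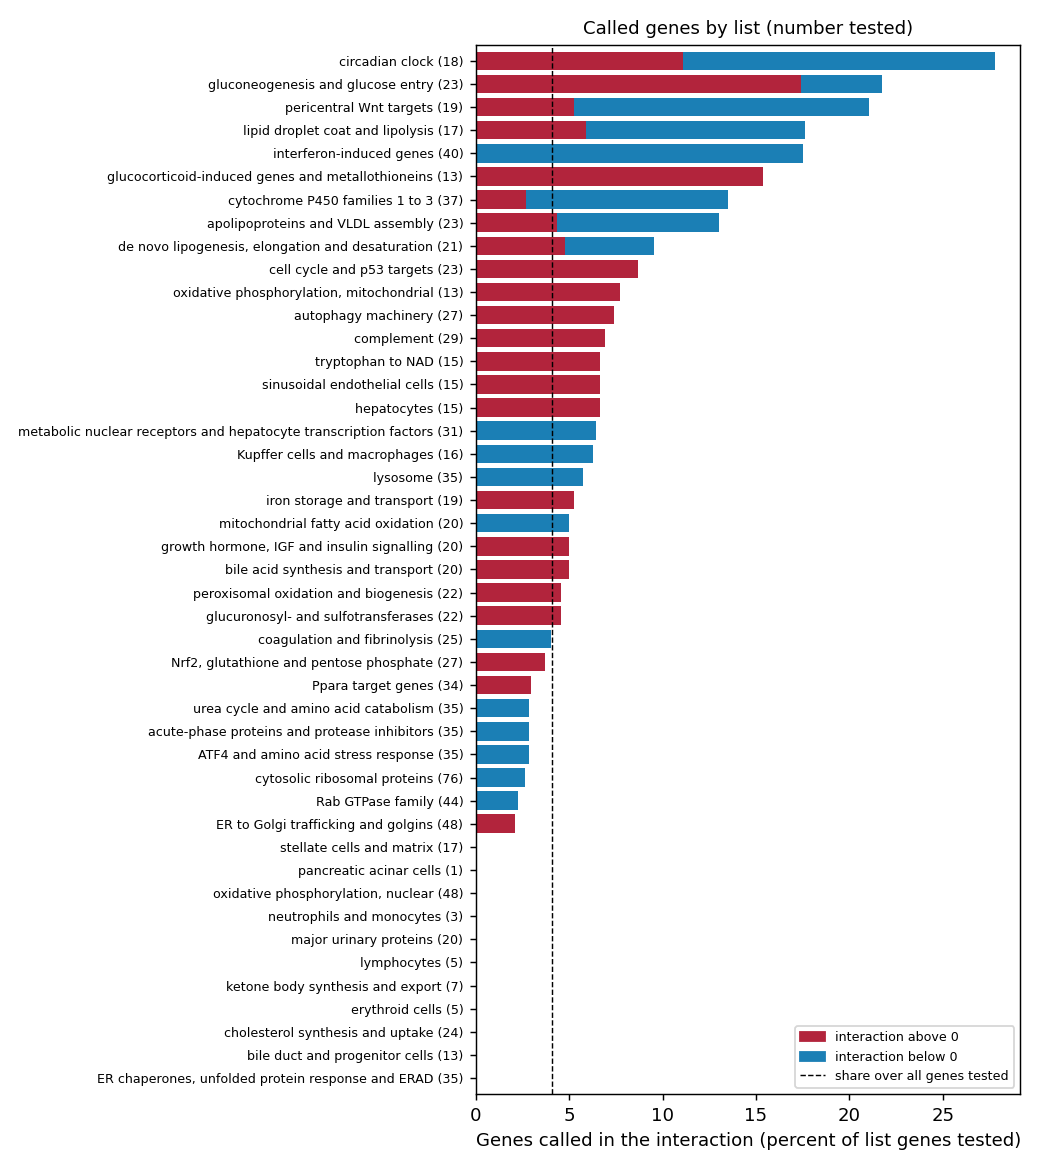
Bars give, for each gene list, the percent of its tested members called in the interaction, red above 0 and blue below 0, with the number tested in brackets. The dashed line marks the 4.06% called over all genes; the circadian clock stands at 27.8%, and every called member of the interferon list lies below 0.

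Genes that set how a fasted liver makes and spares glucose gave some of the clearest interactions. Of the 23 tested, 4 were called above 0, G6pc, Pdk4 and Ppp1r3b among them, and Pklr was called below 0, and the list's median interaction was 0.37 against -0.01 over all genes. Pdk4, the kinase that shuts off pyruvate dehydrogenase so that pyruvate is kept for glucose, was at 11.1, 41.4, 41.6 and 15.1 CPM in ff;ff and at 7.37, 5.34, 5.47 and 6.40 CPM in Rab30 L-/-. In Cpt2 L-/- it was at 479, 290, 334 and 449 CPM, and in DKO at 825, 760, 849 and 366 CPM. The Rab30 L-/- livers all lay below ff;ff, while 3 of the 4 DKO livers lay above every Cpt2 L-/- liver and the other within their range. Its interaction was 3.01 (standard error 0.54, edgeR adjusted p = 0.00677), made of a step of -2.16 with Cpt2 intact (adjusted p = 0.0159) and of 0.85 without it (adjusted p = 0.242).

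G6pc, the phosphatase that releases glucose in the last step of gluconeogenesis, was at 883, 771, 1184 and 620 CPM in ff;ff and at 367, 294, 489 and 267 CPM in Rab30 L-/-. It was at 81.3, 180, 125 and 124 CPM in Cpt2 L-/- and at 404, 444, 233 and 175 CPM in DKO. Rab30 loss thus went with less G6pc RNA where Cpt2 was intact, by -1.29 on the log2 scale (edgeR adjusted p = 0.0481), and with more where Cpt2 was lost, by 1.30 (adjusted p = 0.0457). The interaction was 2.58 (standard error 0.43, adjusted p = 0.00291).

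Ppp1r3b directs protein phosphatase 1 to glycogen. It was at 175, 222, 173 and 215 CPM in ff;ff, 134, 132, 106 and 88.4 CPM in Rab30 L-/-, 13.4, 29.7, 15.7 and 19.8 CPM in Cpt2 L-/- and 23.1, 44.7, 31.0 and 26.6 CPM in DKO, an interaction of 1.44 (standard error 0.33, edgeR adjusted p = 0.0218). Foxo1, the insulin-inhibited transcription factor of the fasted liver, was at 57.6, 76.4, 88.0 and 72.9 CPM in ff;ff and at 52.7, 47.7, 29.9 and 47.7 CPM in Rab30 L-/-. Foxo1 was at 31.6, 31.7, 38.6 and 43.1 CPM in Cpt2 L-/- and at 44.5, 71.7, 48.1 and 42.5 CPM in DKO, and its interaction was 1.24 (standard error 0.27, edgeR adjusted p = 0.0171). In both genes ff;ff had the highest mean and the DKO livers overlapped those of Cpt2 L-/-.

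Pklr, the liver pyruvate kinase of glycolysis, went the other way. It was at 22.0, 33.6, 25.0 and 31.2 CPM in ff;ff and at 33.8, 46.6, 35.3 and 37.6 CPM in Rab30 L-/-, then at 41.0, 46.4, 36.8 and 55.8 CPM in Cpt2 L-/- and at 26.6, 30.2, 25.8 and 21.5 CPM in DKO. Both single knockouts lay above ff;ff and DKO with no overlap between the pairs, and the interaction was -1.24 (standard error 0.23, edgeR adjusted p = 0.00558). In the GRCm38 coordinates of the count table the called genes of the list described first are Pdk4 (ENSMUSG00000019577, chr6:5483351-5496309, minus strand) and G6pc (ENSMUSG00000078650, chr11:101367561-101377903, plus strand). Pck1, the kinase that starts gluconeogenesis from oxaloacetate, did not pass, with an interaction of -0.20 (edgeR adjusted p = 0.706).

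The glucocorticoid-induced genes and metallothioneins had 2 of 13 tested members called (15.4%, beside 4.06% of all genes), both above 0, of which 1 was called in every fit without 1 liver. Tsc22d3, the leucine zipper protein also known as Gilz, was at 217, 216, 267 and 192 CPM in ff;ff, 131, 96.0, 112 and 85.6 CPM in Rab30 L-/-, 26.5, 48.2, 45.8 and 38.3 CPM in Cpt2 L-/- and 35.8, 56.1, 72.7 and 62.1 CPM in DKO. The step from ff;ff to Rab30 L-/- separated the groups completely, and that from Cpt2 L-/- to DKO did not. Its interaction was 1.59 (standard error 0.29, edgeR adjusted p = 0.00521). Dusp1, a phosphatase of MAP kinases, had an interaction of 1.63 (edgeR adjusted p = 0.0480) that was called without ffff238, ffff248, Rab30cff979 or DKO232 and lost without any other liver (adjusted p from 0.0575 to 0.100).

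**Figure D3:**
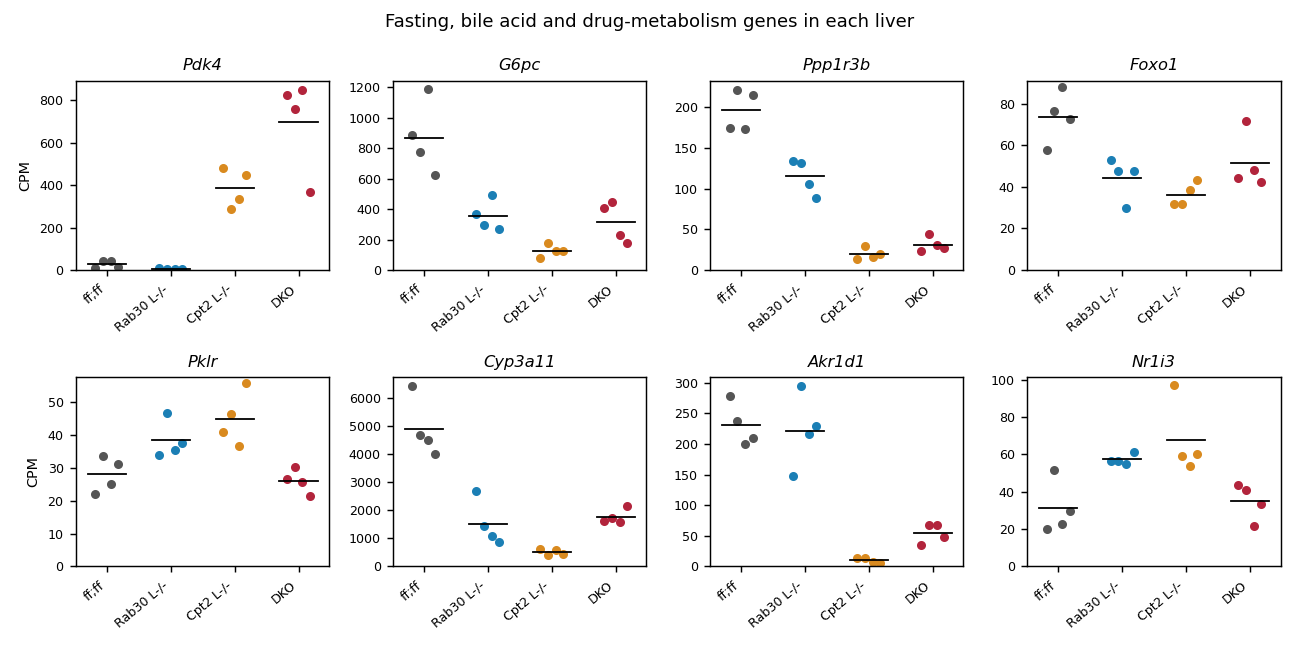
Points are the 4 livers of each group and lines are group means, in CPM on linear axes that start at 0, for 8 genes of glucose, bile acid and drug metabolism. Cyp3a11 lay between 3993 and 6425 CPM in ff;ff and between 409 and 624 CPM in Cpt2 L-/-, with Rab30 L-/- below ff;ff and DKO above Cpt2 L-/-.

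Genes of lipoprotein handling were represented by 3 called members of 23 tested (13%, beside 4.06% of all genes), 1 above 0 and 2 below. DESeq2 called 3 (13%, beside 7.68%) and limma-voom 4 (17.4%, beside 9.2%). Of the genes within 10 Mb of Cpt2 on chromosome 4, 3 of 130 tested were called (2.31%), and around Rab30 on chromosome 7 it was 1 of 119 (0.84%). The 2 below 0, Apoc4 and Apom, encode apolipoproteins, of triglyceride-rich particles and of high density lipoprotein. Apoc4 was at 219, 371, 357 and 436 CPM in ff;ff, 490, 408, 632 and 451 CPM in Rab30 L-/-, 239, 212, 465 and 363 CPM in Cpt2 L-/- and 162, 153, 158 and 188 CPM in DKO, an interaction of -1.47 (standard error 0.33, edgeR adjusted p = 0.0191, and 0.0713 in the fit over 24 livers). Apom was at 127, 166, 160 and 225 CPM in ff;ff and at 280, 231, 274 and 240 CPM in Rab30 L-/-. In Cpt2 L-/- Apom was at 92.3, 95.6, 96.5 and 84.3 CPM and in DKO at 66.7, 65.9, 56.4 and 83.3 CPM. The DKO livers held the lowest levels of both genes and the Rab30 L-/- livers the highest means. The interaction of Apom was -1.03 (standard error 0.22, edgeR adjusted p = 0.0137).

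Of the 17 tested genes of lipid droplets and lipolysis, Lipe, Fitm2 and Cideb were called, and none of them held in every fit without 1 liver. Lipe, hormone-sensitive lipase, had an interaction of -1.73 (edgeR adjusted p = 0.0345) and lost its call without ffff238, ffff242, ffff248, Rab30cff978, Cpt2166, Cpt2801, Cpt2802 or DKO943 (adjusted p from 0.0514 to 0.0704). Fitm2, an ER protein of droplet formation, had an interaction of 0.82 (edgeR adjusted p = 0.0381), called without ffff238, ffff248, Rab30cff741, Rab30cff979, Cpt2164 or DKO943 only (otherwise 0.0541 to 0.0772). Cideb, a droplet protein that takes part in VLDL lipidation, had an interaction of -0.64 (edgeR adjusted p = 0.0464), called without ffff240, ffff242 or Rab30cff980 only (otherwise 0.0544 to 0.0939). Of 20 genes of mitochondrial fatty acid oxidation edgeR called 1 (5%, against 4.06% of all genes), Cpt2 itself. DESeq2 called 3 (15%, against 7.68% of all genes) and limma-voom 4 (20%, against 9.2% of all genes).

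Secretory genes and the Rab family had 1 call each by edgeR. Of 48 genes of ER to Golgi trafficking 1 was called (2.08%, beside 4.06% of all genes), Sar1b, the GTPase of the COPII coat that chylomicrons and VLDL depend on. DESeq2 and limma-voom each called 2 of the 48 (4.17%, beside 7.68% and 9.2% of all genes). Sar1b was at 257, 217, 170 and 189 CPM in ff;ff, 196, 169, 161 and 127 CPM in Rab30 L-/-, 153, 159, 177 and 155 CPM in Cpt2 L-/- and 238, 262, 209 and 227 CPM in DKO. All DKO livers lay above those of Cpt2 L-/-, and the interaction was 0.89 (standard error 0.21, edgeR adjusted p = 0.0236, and 0.0765 in the fit over 24 livers). Among 44 Rab genes tested the single call (2.27%) was Rab36, while DESeq2 and limma-voom each called 5 (11.4%, against 7.68% and 9.2% of all genes) and 13 had an unadjusted p under 0.05. It was at 7.07, 7.25, 5.32 and 6.05 CPM in ff;ff, 15.4, 9.60, 14.8 and 14.3 CPM in Rab30 L-/-, 15.5, 22.2, 20.1 and 17.8 CPM in Cpt2 L-/- and 10.4, 7.80, 8.53 and 7.18 CPM in DKO. Rab36 was higher in both single knockouts than in ff;ff and DKO without overlap between the pairs, and its interaction of -2.24 (standard error 0.26, edgeR adjusted p = 5.86e-05) joined 2 called steps, 1.07 with Rab30 loss alone and -1.16 with Rab30 loss on top of Cpt2 loss.

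Among secreted hepatocyte proteins edgeR called 1 of 25 tested genes of coagulation and fibrinolysis (4%) and 1 of 35 acute-phase proteins and protease inhibitors (2.86%), beside 4.06% of all genes. DESeq2 called 4 (16%) and 2 (5.71%) of these, beside 7.68% of all genes, and limma-voom 3 (12%) and 4 (11.4%), beside 9.2% of all genes. Alb, serum albumin, was at 95511, 81880, 89003 and 72014 CPM in ff;ff and at 65533, 53164, 56062 and 64824 CPM in Rab30 L-/-, and at 35219, 28244, 36114 and 27916 CPM in Cpt2 L-/- and 47492, 54667, 40497 and 43129 CPM in DKO. Its interaction was 1.04 (standard error 0.24, edgeR adjusted p = 0.0215), and its call was lost without Cpt2802 (adjusted p = 0.0506). The summed level of the 15 hepatocyte markers, which include Alb, ran from 135420 to 173697 CPM in ff;ff, from 121276 to 138921 CPM in Rab30 L-/-, from 63996 to 79264 CPM in Cpt2 L-/- and from 83291 to 104900 CPM in DKO. In whole liver tissue fewer cells of a type and less RNA per cell cannot be told apart. Serpinf2, the plasmin inhibitor, had an interaction of -1.06 (edgeR adjusted p = 0.0230, and 0.0502 without Cpt2166). Itih1, a heavy chain that binds hyaluronan, had an interaction of -0.78 (edgeR adjusted p = 0.0304) and lost its call without ffff240, Rab30cff978, Cpt2801, Cpt2802, DKO232, DKO247 or DKO943 (adjusted p from 0.0529 to 0.0732).

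Drug-metabolising cytochromes P450 moved in both directions, with 5 of 37 tested members called by edgeR (13.5%, beside 4.06% of all genes). DESeq2 called 6 (16.2%, beside 7.68%) and limma-voom 7 (18.9%, beside 9.2%). Cyp3a11, the main hepatic P450 of this family and a target of the receptors Pxr and Car, was at 6425, 4671, 4503 and 3993 CPM in ff;ff and at 2682, 1428, 1087 and 856 CPM in Rab30 L-/-. It was at 624, 409, 599 and 453 CPM in Cpt2 L-/- and at 1604, 1733, 1571 and 2140 CPM in DKO. None of the 4 ranges overlapped except those of Rab30 L-/- and DKO. Its position is given as ENSMUSG00000056035, chr5:145854426-145879964, minus strand (GRCm38). The step with Rab30 loss was -1.69 where Cpt2 was intact (edgeR adjusted p = 0.00473) and 1.76 where it was lost (adjusted p = 0.00346), which gave an interaction of 3.45 (standard error 0.40, adjusted p = 6.67e-05).

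The other 4 called P450 genes were below 0. Cyp2c50 was at 173, 201, 159 and 184 CPM in ff;ff, 514, 371, 173 and 393 CPM in Rab30 L-/-, 68.5, 49.1, 70.4 and 70.8 CPM in Cpt2 L-/- and 26.4, 26.6, 23.4 and 52.6 CPM in DKO. The livers overlapped in both pairs. The interaction of Cyp2c50 was -2.02 (standard error 0.40, edgeR adjusted p = 0.0107). Cyp2c54, its close relative, had an interaction of -1.47 (edgeR adjusted p = 0.0265), lost without ffff238, Rab30cff978 or Rab30cff980 (adjusted p from 0.0514 to 0.0534). Near-identical paralogs of this cluster can share reads, so the split between them is uncertain. Cyp3a13 had an interaction of -2.37 (edgeR adjusted p = 0.0380), called without Rab30cff741, Rab30cff979, Cpt2802 or DKO233 only (otherwise 0.0507 to 0.0790). Cyp2g1, at 2.01 CPM or less in every liver, had an interaction of -3.48 (edgeR adjusted p = 0.0262), lost without Rab30cff980, Cpt2166 or DKO943 (adjusted p from 0.0514 to 0.0701).

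Nr1i3 encodes Car, the nuclear receptor that induces Cyp2b and Cyp2c genes. It was at 19.9, 51.6, 22.8 and 29.9 CPM in ff;ff, 56.7, 56.5, 54.9 and 61.2 CPM in Rab30 L-/-, 97.3, 58.9, 53.6 and 60.2 CPM in Cpt2 L-/- and 43.4, 41.1, 21.4 and 33.6 CPM in DKO. Both single knockouts lay above their counterparts, and the interaction was -1.83 (standard error 0.38, edgeR adjusted p = 0.0142). Akr1d1, the reductase that shapes the ring system of bile acids, was at 279, 238, 200 and 209 CPM in ff;ff and at 148, 294, 217 and 229 CPM in Rab30 L-/-. Akr1d1 was at 14.3, 14.1, 7.01 and 5.65 CPM in Cpt2 L-/- and at 34.4, 68.0, 67.4 and 47.5 CPM in DKO. Here the difference lay in the Cpt2-deficient pair, 2.40 on the log2 scale (edgeR adjusted p = 0.000675), while the pair with Cpt2 overlapped (-0.06, adjusted p = 0.951), and the interaction was 2.46 (standard error 0.41, adjusted p = 0.00330).

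The circadian clock had the highest share of called members, 5 of 18 tested. The clock runs on Clock and Arntl (Bmal1), which drive their own repressors through E-box sequences, and on a second arm in which Rev-erb receptors repress through response elements of their own and Dbp and Nfil3 act on D-boxes in opposite directions. Of the called genes 3 were below 0, Bhlhe41, Dbp and Nr1d1, and both of the others, Cry1 and Nfil3, above 0. Livers were collected at a set time of day, and clock RNA swings widely over the day, so a shift in phase and a shift in level cannot be told apart at 1 time point.

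Nr1d1, the repressor Rev-erbα, was at 18.2, 24.9, 27.0 and 27.4 CPM in ff;ff and at 94.3, 42.6, 47.8 and 47.1 CPM in Rab30 L-/-. It was at 110, 81.3, 74.8 and 97.0 CPM in Cpt2 L-/- and at 55.6, 35.1, 27.3 and 37.3 CPM in DKO. Rab30 loss went with more Nr1d1 where Cpt2 was intact (1.24, edgeR adjusted p = 0.0236) and with less where it was lost (-1.23, adjusted p = 0.0229), an interaction of -2.47 (standard error 0.35, adjusted p = 0.000760). Dbp, the output factor that activates D-boxes, was likewise higher in both single knockouts than in ff;ff and DKO, at 28.1, 34.1, 39.4 and 61.1 CPM in ff;ff, 100, 96.5, 121 and 113 CPM in Rab30 L-/-, 143, 61.1, 77.3 and 84.6 CPM in Cpt2 L-/- and 60.1, 55.0, 18.1 and 35.1 CPM in DKO. The 2 genes are Nr1d1 (ENSMUSG00000020889, chr11:98767932-98775333, minus strand) and Dbp (ENSMUSG00000059824, chr7:45705088-45710203, plus strand). The interaction of Dbp was -2.52 (standard error 0.48, edgeR adjusted p = 0.00981). Bhlhe41, the repressor Dec2 of E-boxes, was at 1.33, 1.52, 0.993 and 1.55 CPM in ff;ff, 5.51, 4.59, 2.82 and 3.16 CPM in Rab30 L-/-, 10.9, 8.48, 10.1 and 7.85 CPM in Cpt2 L-/- and 6.21, 5.57, 1.52 and 5.49 CPM in DKO, an interaction of -2.54 (standard error 0.48, edgeR adjusted p = 0.00559). In none of the 3 genes did the livers of either pair overlap.

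Cry1, which represses Clock and Bmal1, was at 17.3, 36.3, 37.1 and 21.1 CPM in ff;ff, 11.5, 19.4, 12.3 and 17.0 CPM in Rab30 L-/-, 7.83, 4.56, 3.21 and 3.45 CPM in Cpt2 L-/- and 15.9, 14.6, 14.8 and 9.10 CPM in DKO. Its interaction was 2.41 (standard error 0.42, edgeR adjusted p = 0.00446). Nfil3, the repressor of D-boxes, was at 34.7, 35.0, 57.2 and 26.1 CPM in ff;ff, 20.9, 39.2, 15.2 and 21.2 CPM in Rab30 L-/-, 3.0002, 4.11, 7.39 and 5.02 CPM in Cpt2 L-/- and 14.2, 12.1, 17.4 and 7.60 CPM in DKO, an interaction of 2.05 (standard error 0.48, edgeR adjusted p = 0.0256) that was lost without Rab30cff980, Cpt2166 or Cpt2802 (adjusted p from 0.0521 to 0.0542). Nfil3 is given to complete the count of clock genes and was chosen after its values were seen. For both genes every DKO liver lay above every Cpt2 L-/- liver. The 13 clock genes that were not called included Arntl at 0.35 (adjusted p = 0.769), Per1 at 0.21 (adjusted p = 0.794), Per2 at 0.54 (adjusted p = 0.427) and Nr1d2 at 0.24 (adjusted p = 0.573), all by edgeR.

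**Figure D4:**
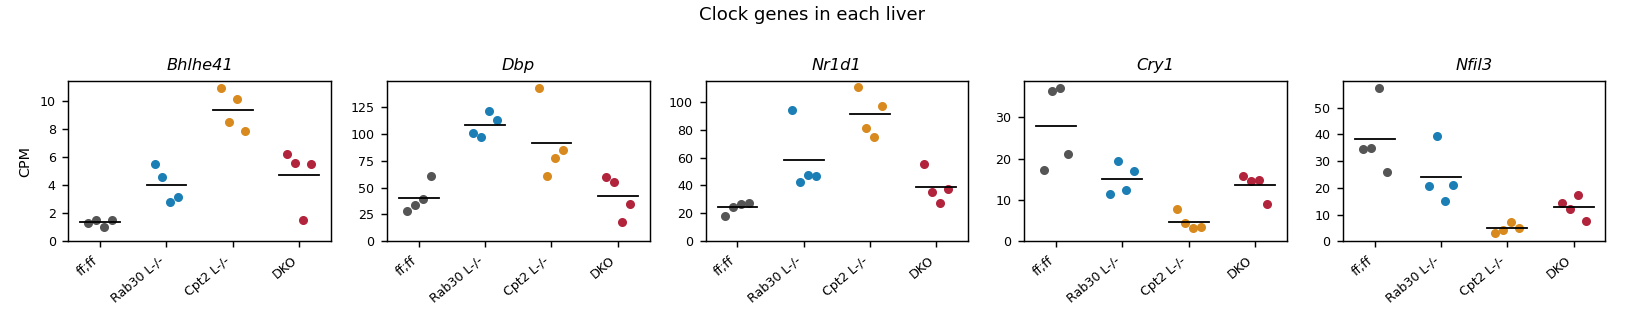
Points are the 4 livers of each group and lines are group means, in CPM on linear axes from 0, for the 5 called clock genes. Bhlhe41, Dbp and Nr1d1 are lower in ff;ff than in Rab30 L-/- and lower in DKO than in Cpt2 L-/-, and Cry1 and Nfil3 are higher in DKO than in Cpt2 L-/-.

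Of the 5 called clock genes 3 carry a clock motif in the RefSeq promoter window of GRCm38, which spans 250 bases before to 50 bases after the gene start. The motifs searched on both strands were the E-box CACGTG, the D-box TTANGTAA and the Rev-erb element TAGGTCA, which 7.15%, 2.32% and 2.61% of 32851 promoter windows of 300 bases hold. Of the 16 clock-list genes with a window, the E-box was in 5 (Bhlhe41, Ciart, Cry1, Per1 and Tef). The D-box was in 1 (Per3) and the Rev-erb element in 1 (Nfil3). Ciart, Per1, Tef and Per3 were not called, so the motifs were not particular to the called genes. Capitals mark the E-box of Bhlhe41 (chr6:145865371-145865670, minus strand), the E-box of Cry1 (chr10:85185005-85185304, minus strand) and the Rev-erb element, on the other strand, of Nfil3 (chr13:52980990-52981289, minus strand). A match is a string of letters and no evidence of binding, and the windows of Dbp and Nr1d1 held none of the 3 motifs.
Bhlhe41: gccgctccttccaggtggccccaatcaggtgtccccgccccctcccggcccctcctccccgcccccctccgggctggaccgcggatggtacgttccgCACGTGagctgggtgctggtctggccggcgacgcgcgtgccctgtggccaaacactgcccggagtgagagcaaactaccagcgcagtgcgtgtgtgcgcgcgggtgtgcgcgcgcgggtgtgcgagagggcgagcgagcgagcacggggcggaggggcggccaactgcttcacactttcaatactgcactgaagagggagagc
Cry1: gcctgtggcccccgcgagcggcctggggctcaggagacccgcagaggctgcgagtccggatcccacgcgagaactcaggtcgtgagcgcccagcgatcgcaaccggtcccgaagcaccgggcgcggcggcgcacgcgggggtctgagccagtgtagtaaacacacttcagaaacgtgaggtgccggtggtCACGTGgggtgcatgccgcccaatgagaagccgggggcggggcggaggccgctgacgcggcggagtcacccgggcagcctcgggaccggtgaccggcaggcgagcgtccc
Nfil3: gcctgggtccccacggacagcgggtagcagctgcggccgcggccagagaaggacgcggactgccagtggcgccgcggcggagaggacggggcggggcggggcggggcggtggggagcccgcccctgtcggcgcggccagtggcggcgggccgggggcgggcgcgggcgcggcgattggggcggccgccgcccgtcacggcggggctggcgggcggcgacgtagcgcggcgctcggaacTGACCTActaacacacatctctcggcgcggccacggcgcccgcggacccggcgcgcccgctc

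The interferon-induced genes lay below 0 almost throughout. Of 40 tested, 7 were called, all below 0, and 39 had an interaction under 0, with a list median of -0.95 against -0.01 over all genes. The median step with Rab30 loss was 1.04 in the pair that kept Cpt2 and 0.02 in the pair that lacked it. These genes are switched on by interferons through Stat and Irf factors and arm cells against viruses and other microbes.

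The 7 genes fell into 2 patterns. Irf1, a transcription factor of the interferon response, was at 15.9, 12.2, 11.2 and 13.8 CPM in ff;ff, 29.5, 47.9, 36.9 and 31.8 CPM in Rab30 L-/-, 13.5, 12.3, 16.8 and 12.999 CPM in Cpt2 L-/- and 15.4, 10.5, 5.95 and 12.9 CPM in DKO. Its interaction was -1.77 (standard error 0.32, edgeR adjusted p = 0.00428), of which 1.46 was the step from ff;ff to Rab30 L-/- (adjusted p = 0.00298). Gbp3, a guanylate-binding protein, was at 2.83, 2.38, 2.27 and 2.77 CPM in ff;ff, 4.42, 9.51, 11.1 and 5.63 CPM in Rab30 L-/-, 2.22, 2.05, 2.06 and 1.76 CPM in Cpt2 L-/- and 1.4997, 2.36, 1.46 and 2.06 CPM in DKO, an interaction of -1.72 (standard error 0.40, edgeR adjusted p = 0.0228, and 0.302 in the fit over 24 livers). Isg15, a ubiquitin-like modifier, was at 1.33, 2.25, 0.993 and 3.99 CPM in ff;ff, 4.65, 5.76, 11.5 and 6.79 CPM in Rab30 L-/-, 0.783, 0.642, 1.29 and 1.51 CPM in Cpt2 L-/- and 0.714, 0.983, 0.728 and 0.235 CPM in DKO. In these genes the Rab30 L-/- livers alone stood high.

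The interaction of Isg15 was -2.43 (standard error 0.65, edgeR adjusted p = 0.0427), called without ffff248, Rab30cff741, Cpt2164, Cpt2166 or DKO233 only (otherwise 0.0525 to 0.101). Tap1, the transporter that loads peptides for MHC class I, was likewise highest on average in Rab30 L-/-, though 2 Cpt2 L-/- livers reached its range, with group means of 20.6 CPM in ff;ff, 32.3 CPM in Rab30 L-/-, 25.9 CPM in Cpt2 L-/- and 22.2 CPM in DKO. Its interaction was -0.87 (edgeR adjusted p = 0.0463), called without ffff242, Rab30cff980, Cpt2164 or DKO943 only (otherwise 0.0555 to 0.112, and 0.463 in the fit over 24 livers). Psmb8 and Psmb9, subunits of the immunoproteasome, fell just outside the call with interactions of -1.43 (edgeR adjusted p = 0.0563) and -1.64 (edgeR adjusted p = 0.0584). Over the fits without 1 liver the list had from 5 to 9 called genes, and 5 were called in all of them, Irf1, Gbp3, Ifi203, Ifi204 and Mndal. Gbp3, Tap1, Psmb8 and Psmb9 are named to complete the list and were chosen after their values were seen.

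Ifi203, Ifi204 and Mndal, neighbours in the cluster of DNA-sensing Ifi200 genes on chromosome 1, showed the second pattern, in which Cpt2 L-/- was as high as Rab30 L-/-. Ifi204 was at 1.24, 1.34, 1.06 and 1.67 CPM in ff;ff, 5.04, 8.09, 5.47 and 4.55 CPM in Rab30 L-/-, 5.48, 4.62, 6.17 and 4.90 CPM in Cpt2 L-/- and 2.43, 1.31, 1.59 and 4.08 CPM in DKO, an interaction of -3.26 (standard error 0.44, edgeR adjusted p = 0.000304). Ifi203, named to complete the count after its values were seen, had an interaction of -1.76 (standard error 0.33, edgeR adjusted p = 0.00618). Mndal was listed at 0, 0, 0.142 and 0 CPM in ff;ff, at 4.81, 7.84, 5.22 and 4.78 CPM in Rab30 L-/-, at 6.98, 3.66, 5.85 and 5.90 CPM in Cpt2 L-/- and at 0, 0, 0.0661 and 3.003 CPM in DKO. The ff;ff livers held 2 Mndal reads together and the Rab30 L-/- livers 344, a ratio of 159 (95% exact interval 43.7 to 1319, counting error only). Outside the stretch of chromosome 1 from 170 to 180 Mb, 4 of 37 interferon genes were called, and within it 3 of 3. Over all tested genes the counts were 549 of 13976 outside the stretch and 22 of 87 within it.

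**Figure D5:**
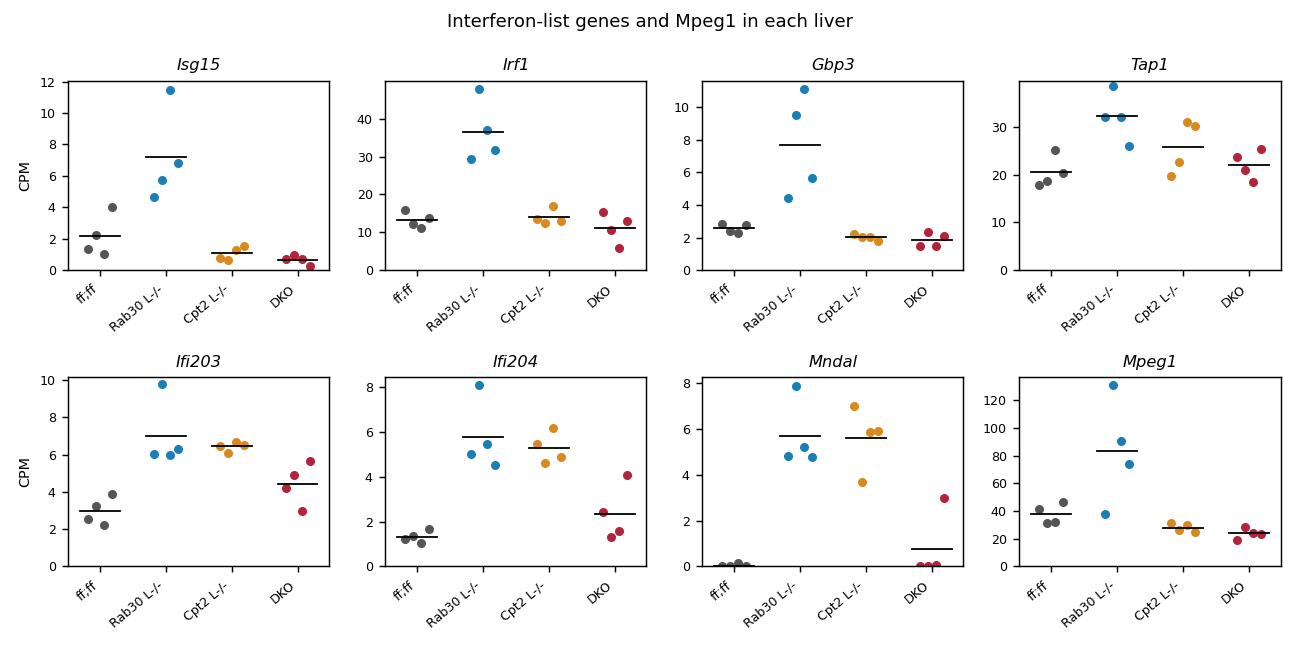
Points are the 4 livers of each group and lines are group means, in CPM on linear axes from 0, for the 7 called interferon-list genes and the macrophage gene Mpeg1. Isg15, Irf1 and Gbp3 stand high in Rab30 L-/- alone, while Ifi203, Ifi204 and Mndal stand high in Rab30 L-/- and Cpt2 L-/- alike.

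The element through which interferon acts was present in 3 of the 6 promoter windows found for the 7 genes. Its core, searched as a pair of GAAA blocks with any 2 bases between them on either strand, occurred in 19 of the 30 interferon-list genes with a RefSeq promoter window and in 3.44% of all 32851 windows. Isg15 (chr4:156200769-156201068, minus strand) held 3 overlapping copies, Gbp3 (chr3:142559794-142560093, plus strand) 2 overlapping copies on the other strand, and Mndal (chr1:173880138-173880437, minus strand) 1, marked here in capitals. These windows show genes of both patterns, and for Irf1, Ifi203 and Tap1 the letters were not in the window.
Isg15: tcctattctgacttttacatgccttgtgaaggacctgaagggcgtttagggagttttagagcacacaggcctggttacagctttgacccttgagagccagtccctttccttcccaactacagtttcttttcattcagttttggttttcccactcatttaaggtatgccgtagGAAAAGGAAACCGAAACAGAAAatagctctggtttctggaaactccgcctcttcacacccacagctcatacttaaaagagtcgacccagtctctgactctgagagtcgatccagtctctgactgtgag
Gbp3: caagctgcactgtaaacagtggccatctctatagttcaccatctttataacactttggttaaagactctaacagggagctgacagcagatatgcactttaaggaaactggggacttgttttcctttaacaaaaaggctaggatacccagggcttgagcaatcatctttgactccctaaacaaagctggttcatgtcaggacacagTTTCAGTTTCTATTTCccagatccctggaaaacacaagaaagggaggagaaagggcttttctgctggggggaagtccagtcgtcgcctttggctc
Mndal: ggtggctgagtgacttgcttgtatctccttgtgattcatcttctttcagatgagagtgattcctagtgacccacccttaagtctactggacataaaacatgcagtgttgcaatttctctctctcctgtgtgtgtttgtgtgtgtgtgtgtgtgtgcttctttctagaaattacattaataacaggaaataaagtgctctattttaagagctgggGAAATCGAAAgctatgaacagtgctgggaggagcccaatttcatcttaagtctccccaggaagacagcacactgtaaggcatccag

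Markers of immune cells were read beside the interferon list. Of the 16 Kupffer cell and macrophage markers 15 had an interaction below 0, with a median of -0.80. Of the 16, 1 was called by edgeR (6.25%, beside 4.06% of all genes), with 8 at an unadjusted p under 0.05. DESeq2 called 5 of them (31.2%, against 7.68% of all genes), limma-voom 1 (6.25%, against 9.2% of all genes) and the fit over 24 livers 0. Their summed level ran from 456 to 777 CPM in ff;ff, from 542 to 1293 CPM in Rab30 L-/-, from 431 to 597 CPM in Cpt2 L-/- and from 438 to 519 CPM in DKO. Mpeg1, the pore-forming protein of macrophages, was the called one, at 41.7, 31.3, 32.2 and 46.6 CPM in ff;ff, 37.5, 131, 90.8 and 73.6 CPM in Rab30 L-/-, 31.3, 26.0, 29.6 and 25.2 CPM in Cpt2 L-/- and 19.1, 28.7, 24.3 and 23.4 CPM in DKO. Its interaction was -1.36 (edgeR adjusted p = 0.0465), called without ffff248 or Rab30cff741 only (otherwise 0.0592 to 0.0846). The 12 neutrophil and monocyte markers summed to at most 7.71 CPM outside Rab30 L-/- and to between 5.89 and 39.1 CPM within it, the highest in 1 liver, and the 16 lymphocyte markers to between 8.996 and 15.3 CPM in Rab30 L-/- and at most 10.5 CPM elsewhere. Of these, 3 neutrophil and monocyte markers were tested, all with an interaction below 0, and 5 lymphocyte markers, 3 below 0 and 2 above. None of the 8 was called by edgeR, with 1 and 2 at an unadjusted p under 0.05, 0 and 1 called by DESeq2 and 0 and 0 by limma-voom. No marker of these 3 lists was at 0 in all 16 livers, and the part of these cells in the interferon result was not tested.

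Of the other cell lists, the 15 sinusoidal endothelial markers had 14 interactions above 0 and 1 call by edgeR (6.67%, beside 4.06% of all genes). This was Dnase1l3, a nuclease secreted by these cells. The list had 0 to 3 calls over the fits without 1 liver. DESeq2 and limma-voom each called 4 of the 15 (26.7%, against 7.68% and 9.2% of all genes). Dnase1l3 was at 42.1, 63.1, 26.7 and 50.8 CPM in ff;ff, 36.2, 33.0, 22.7 and 30.4 CPM in Rab30 L-/-, 29.9, 20.6, 20.3 and 28.8 CPM in Cpt2 L-/- and 37.8, 38.1, 43.3 and 39.4 CPM in DKO. Its interaction was 1.25 (standard error 0.30, edgeR adjusted p = 0.0253), lost without Cpt2166 or Cpt2801 (adjusted p 0.0534 and 0.0545). The summed endothelial level ran from 484 to 748 CPM in ff;ff, 480 to 529 CPM in Rab30 L-/-, 464 to 581 CPM in Cpt2 L-/- and 509 to 667 CPM in DKO. The bile duct markers summed to between 339 and 511 CPM in ff;ff, 387 and 535 CPM in Rab30 L-/-, 607 and 851 CPM in Cpt2 L-/- and 440 and 682 CPM in DKO, with 0 of 13 tested called by edgeR, 1 at an unadjusted p under 0.05 and 1 each by DESeq2 and limma-voom. Of 11 pancreatic acinar markers 6 (Amy2a5, Pnlip, Cpb1, Prss2, Cela3b and Try5) were at 0 in all 16 livers.

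Targets of Wnt in the hepatocytes around the central vein gave 4 calls among 19 tested (21.1%, beside 4.06% of all genes). Slc1a2, a glutamate transporter of these cells, was at 334, 298, 348 and 282 CPM in ff;ff, 114, 258, 134 and 170 CPM in Rab30 L-/-, 39.5, 62.3, 68.3 and 52.1 CPM in Cpt2 L-/- and 195, 195, 101 and 151 CPM in DKO. All Rab30 L-/- livers were below ff;ff and all DKO livers above Cpt2 L-/-, with an interaction of 2.43 (standard error 0.35, edgeR adjusted p = 0.000703). The other 3 were below 0. Axin2, the feedback inhibitor of the Wnt pathway, was at 4.16, 5.18, 4.26 and 5.41 CPM in ff;ff, 7.13, 4.59, 7.33 and 5.94 CPM in Rab30 L-/-, 13.9, 20.3, 11.5 and 19.97 CPM in Cpt2 L-/- and 11.7, 6.49, 6.81 and 5.35 CPM in DKO, an interaction of -1.52 (standard error 0.35, edgeR adjusted p = 0.0227, and 0.0513 without Cpt2802). Rnf43, which clears Wnt receptors from the membrane, had an interaction of -1.68 (edgeR adjusted p = 0.0330), called without ffff248, Rab30cff741, Cpt2801, DKO232, DKO233 or DKO247 only (otherwise 0.0506 to 0.0659). Tbx3, a transcription factor, had an interaction of -2.004 (edgeR adjusted p = 0.0440), called without ffff248, Cpt2164, Cpt2801 or DKO232 only (otherwise 0.0563 to 0.0868). With Cpt2802 left out, Slc1a2 was the only call of the list.

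Growth-related genes included Pttg1, securin, which holds sister chromatids together until anaphase. Pttg1 was at 19.1, 11.8, 16.6 and 11.4 CPM in ff;ff, 1.55, 1.92, 1.201 and 0.849 CPM in Rab30 L-/-, 19.8, 22.3, 31.6 and 22.3 CPM in Cpt2 L-/- and 18.3, 10.1, 20.5 and 22.5 CPM in DKO. Among the 4 groups Rab30 L-/- alone was low, by -3.42 against ff;ff (edgeR adjusted p = 3.92e-06). The interaction was 2.999 (standard error 0.38, edgeR adjusted p = 0.000186, and 0.122 in the fit over 24 livers). In the whole-body colony Pttg1 was at 1.24, 13.3, 1.53 and 1.75 CPM in the Rab30 knockout livers. It was at 13.8, 14.7, 1.65 and 1.497 CPM in their controls. Low and high values of Pttg1 therefore occurred there under either Rab30 label. Trp53inp1, a p53-induced stress protein, had an interaction of 2.59 (standard error 0.57, edgeR adjusted p = 0.0230, and 0.0562 with no filter on low counts). For this gene 1 ff;ff liver was at 431 CPM beside 123 to 153 in the others. Bmp2, the signal from endothelial cells that raises hepcidin, was at 20.8, 34.6, 24.0 and 29.0 CPM in ff;ff, 16.6, 15.9, 12.5 and 15.97 CPM in Rab30 L-/-, 24.8, 17.6, 15.4 and 21.2 CPM in Cpt2 L-/- and 21.1, 28.2, 30.9 and 24.2 CPM in DKO, an interaction of 1.23 (standard error 0.25, edgeR adjusted p = 0.0115). Of the 13 mitochondrially encoded subunits of oxidative phosphorylation edgeR called 1 (7.69%, beside 4.06% of all genes). DESeq2 and limma-voom called 2 each (15.4%, beside 7.68% and 9.2% of all genes). The gene edgeR called was mt-Nd3, a subunit of complex I, at 24.2, 12.2, 11.3 and 13.1 CPM in ff;ff, 8.45, 7.59, 10.1 and 9.18 CPM in Rab30 L-/-, 2.35, 4.49, 4.50 and 3.70 CPM in Cpt2 L-/- and 12.6, 15.98, 12.2 and 19.7 CPM in DKO. Its interaction was 2.78 (standard error 0.36, edgeR adjusted p = 0.000198).

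The largest interactions belonged to genes that were nearly absent from some groups. Rpl34, a protein of the large ribosomal subunit, was at 1.503, 3.90, 2.48 and 3.54 CPM in ff;ff, 65.1, 51.9, 60.5 and 66.1 CPM in Rab30 L-/-, 106, 106, 171 and 133 CPM in Cpt2 L-/- and 1.79, 3.93, 3.64 and 3.19 CPM in DKO. Its processed pseudogene Rpl34-ps1 on chromosome 6 showed the reverse, at 164, 105, 115 and 146 CPM in ff;ff, 65.5, 60.6, 69.2 and 68.8 CPM in Rab30 L-/-, 3.46, 4.69, 3.34 and 5.09 CPM in Cpt2 L-/- and 126, 130, 134 and 162 CPM in DKO. The 2 copies are Rpl34 (ENSMUSG00000062006, chr3:130726831-130730398, minus strand) and Rpl34-ps1 (ENSMUSG00000068396, chr6:71124610-71124963, plus strand). Their interactions were -9.74 and 6.06 (edgeR adjusted p = 7.96e-12 for both). Added together, the 2 copies came to 135 ± 26.7 CPM in ff;ff, 127 ± 9.90 in Rab30 L-/-, 133 ± 30.6 in Cpt2 L-/- and 141 ± 16.5 in DKO (SD, n = 4), so the groups overlapped in the sum and differed in which copy the reads were assigned to. The copies are alike enough to share reads, and neither value alone can be read as the level of Rpl34. Rpl21, the other called gene of 76 cytosolic ribosomal proteins, also has processed pseudogenes, and its level is uncertain too. Its interaction was -5.95, and those of Rpl21-ps8 and Rpl21-ps15 were -8.89 and -2.29, in the same direction. No sum over the copies of Rpl21 was made.

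Pseudogenes as a class were called more often than protein-coding genes, 41 of 616 (6.66%) against 489 of 12326 (3.97%). Gm13394, a processed pseudogene, was at 1.57, 2.18, 1.74 and 2.76 CPM in Cpt2 L-/- and between 169 and 539 CPM in the other 12 livers, and Gm5499 was at 0.0643 to 0.251 CPM in Cpt2 L-/- and 3.50 to 6.76 CPM elsewhere. Adh6-ps1 had no read in any ff;ff or DKO liver, 495 reads over the Rab30 L-/- livers and 501 over those of Cpt2 L-/-, at least 152.63-fold higher in Rab30 L-/- than in ff;ff and at least 175.86-fold higher in Cpt2 L-/- than in DKO against a floor of 3 reads over the group. Reads were thus assigned to this pseudogene in the single knockouts and not in ff;ff and DKO, the littermates. In the whole-body colony Adh6-ps1 was at 0 CPM in the Rab30 knockout liver KO3 and between 4.83 and 28.9 CPM in the others. Absence therefore also occurred outside these litters, within a genotype label.

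Several protein-coding genes had a similar on or off distribution. C1s2, a copy of the complement protease C1s, was at 9.81, 6.82, 12.98 and 13.5 CPM in ff;ff, 16.9, 7.43, 7.91 and 6.79 CPM in Rab30 L-/-, 0, 0, 0.129 and 0 CPM in Cpt2 L-/- and 5.78, 6.75, 2.51 and 5.77 CPM in DKO. The DKO livers held 345 reads and the Cpt2 L-/- livers 2, a ratio of 164 (95% exact interval 45.0 to 1358, counting error only), and the interaction was 7.17 (edgeR adjusted p = 5.29e-05, and 0.0603 in the fit over 24 livers). C1rb, its neighbour and a copy of C1r, was likewise lowest in Cpt2 L-/-, with an interaction of 3.44 (edgeR adjusted p = 0.0107, and 0.0574 in the fit over 24 livers). These 2 were the genes edgeR called of 29 in the complement list (6.9%, beside 4.06% of all genes), where DESeq2 called 4 (13.8%, beside 7.68%) and limma-voom 6 (20.7%, beside 9.2%). Both had an interaction above 0, while 20 of the 29 interactions of the list were below 0, with a median of -0.24. C1s2 and C1rb each have a close paralog that can share their reads.

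Mme, the cell-surface peptidase neprilysin, was at 0.265, 1.22, 0.355 and 0.129 CPM in ff;ff, 9.23, 7.76, 3.31 and 3.63 CPM in Rab30 L-/-, 4.04, 2.57, 3.53 and 1.63 CPM in Cpt2 L-/- and 0.286, 0.393, 0.0661 and 0.0938 CPM in DKO, an interaction of -7.34 (standard error 0.83, edgeR adjusted p = 5.96e-05). Rarres1, a retinoid-induced membrane protein, was at 3.71, 4.02, 1.49 and 1.87 CPM in ff;ff, 71.8, 49.1, 10.5 and 45.6 CPM in Rab30 L-/-, 67.5, 128, 131 and 93.3 CPM in Cpt2 L-/- and 22.5, 15.1, 25.3 and 33.4 CPM in DKO, an interaction of -6.11 (standard error 0.71, edgeR adjusted p = 0.000304). Both lie on chromosome 3, and in both the means of the single knockouts were above those of ff;ff and DKO, though the Rarres1 level of 1 Rab30 L-/- liver was below every DKO liver. Atp1b1, the β subunit of the sodium pump, had the reverse order, at 353, 245, 503 and 261 CPM in ff;ff, 79.6, 76.9, 100 and 71.9 CPM in Rab30 L-/-, 24.3, 50.1, 27.4 and 33.5 CPM in Cpt2 L-/- and 63.0, 137, 173 and 53.4 CPM in DKO, with an interaction of 3.70 (standard error 0.51, edgeR adjusted p = 0.000811).

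Corin, a serine protease that activates natriuretic peptide, was at 16.3, 16.2, 13.6 and 14.5 CPM in DKO and at 1.61 CPM or less in the other 12 livers except ffff240, at 8.23 CPM. Its interaction was 6.56 (edgeR adjusted p = 0.0116) and 3.70 without ffff240, with the call kept. Obp2a, a lipocalin, was at 6.99, 1.83, 5.89 and 9.14 CPM in ff;ff, 1.24, 0.501, 0.455 and 0.540 CPM in Rab30 L-/-, 0.130, 0.128, 1.22 and 0.502 CPM in Cpt2 L-/- and 8.36, 2.03, 2.12 and 5.25 CPM in DKO, an interaction of 6.28 (standard error 0.94, edgeR adjusted p = 0.00123). Fam107a, an actin-binding stress protein, was between 11.7 and 160 CPM in ff;ff and at 3.24 CPM or less elsewhere, and its interaction of 7.29 (edgeR adjusted p = 0.0219) was lost without DKO247 (adjusted p = 0.0658).

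The called genes were spread unevenly along the chromosomes. Over the autosomes and the X chromosome the share ran from 2.21% on chromosome 9 to 7.09% on chromosome 6, with 6.32% on chromosome 1 and 6.03% on chromosome 3. In windows of 10 Mb with at least 20 tested genes the median share was 3.60%, and 38 of the 224 windows had no call. The highest was chromosome 1 from 170 to 180 Mb, where 22 of 87 genes were called (25.3%), 17 of them below 0. Beside Ifi203, Ifi204, Mndal and Nr1i3 these included Fcgr3 at -2.91 (edgeR adjusted p = 0.00123) and Fcer1g at -2.82 (edgeR adjusted p = 0.00446), both parts of Fc receptors of immune cells, and Dusp12 at -2.80 (edgeR adjusted p = 0.00033). Ifi202b, from the same cluster, was opposite in sign at 8.65 (edgeR adjusted p = 0.000198), with no read in any Cpt2 L-/- liver. Without this window 549 genes remained called. These neighbours were singled out after their values were seen. The next was chromosome 3 from 60 to 70 Mb, with 6 of 31 called (19.4%), Mme, Rarres1 and B3galnt1 among them.

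Livers of the whole-body colony, which entered only the alternative fit over 24 livers, also held near-absent values for some of these genes, in livers of either Rab30 label. Rpl34 was at 50.2, 94.3, 3.34 and 113 CPM in the 4 Rab30KO livers and at 121, 144, 106 and 46.5 CPM in their controls, and Rpl34-ps1 at 45.2, 7.38, 98.05 and 6.29 CPM and at 9.98, 11.3, 1.78 and 54.9 CPM in the same order of livers. The liver lowest in Rpl34 was the highest in Rpl34-ps1. C1s2 was at 19.3, 8.14, 20.1 and 0.130 CPM in Rab30KO and at 0, 12.2, 15.2 and 18.6 CPM in the controls, and Gm13394 was low, at 2.27 and 0.584 CPM, in the same 2 livers. Corin was between 18.5 and 34.2 CPM in 7 of these livers and at 0.136 CPM in 1 control. For these genes the on or off values therefore also differed among livers of 1 genotype label. Other genes had no near-absent liver among these 8, with Mndal between 8.10 and 23.3 CPM, Mme between 8.03 and 50.2 CPM, Rarres1 between 18.96 and 55.5 CPM and Gm5499 between 2.31 and 8.36 CPM.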

How the data were processed

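RNA-seq counts from 16 mouse livers (4 DKO, 4 Cpt2 L-/-, 4 Rab30 L-/- and 4 ff;ff) were analysed, out of 24. The authors deposited raw read counts per gene without normalization. The submitters' processing notes name HISAT2, DESeq2 and GRCm38 (mm10); the counting tool and any use of strand are not given in the sources used here, so values of genes that overlap another gene or have a close copy are uncertain. Deposited FPKM values, normalized counts and the authors' own comparison tables (fold changes and p-values) were not used. Totals ran from 13230854 to 24497738 counts per liver, and every pair of livers within a group differed by more than sampling noise. No molecular identifiers were used, so reads are not independent molecules, and intervals and floors cover counting error only. Precision at 4 livers per group is limited.

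Genes passing filterByExpr were TMM-scaled and fitted with edgeR 4.0.16 (glmQLFit, robust, and glmQLFTest, R 4.3.3) in 1 model of 4 groups, and the interaction and each simple step were contrasts of it. P-values were Benjamini-Hochberg adjusted over all genes tested, and standard errors are the log2 fold change over the root of F. Alternatives were DESeq2 1.42.0 size factors, its Wald test, limma 3.58.1 voom with quality weights, a fit over 24 livers, other filters and thresholds, and each liver left out. The fit was tested on simulated counts of 13907 genes, where edgeR recovered 71.4% of interactions of size 2 on the log2 scale and 20.2% of those of size 1, with 3 false calls. In the simulation all groups shared the same mean for a gene, apart from changes placed in DKO only. It held no effect of Cpt2 loss, of Rab30 loss alone or of litter, so the false calls do not measure errors from these. The text names Rab30 and Cpt2, the 12 highest and 12 lowest interactions among called protein-coding genes whose highest group averaged 50 or more normalized counts and no overlap in at least 1 pair, the 5 smallest p-values, and per list up to 4 called genes or else the one of smallest p. Members and lists were chosen with earlier results of these data known. Motifs were searched in RefSeq promoters of GRCm38.p6. Some genes that meet the naming rule are not reported here.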

Additional observations from a re-analysis of the deposited data

Results flagged for a closer look

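The change with Rab30 loss differed between Cpt2-deficient and Cpt2-intact livers, by the test of the difference itself, for 571 genes, which are the subject of the report.

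In 33 of 356 pairs of a named gene and a group of 4 livers (9.27%), the highest or lowest liver stood apart from the others by Dixon's test at the 95% level. For normally distributed values chance gives about 1 pair in 20. These genes were chosen by their results and some counts were near 0, so the share cannot be judged against that rate. Mndal in ffff242 and C1s2 in Cpt2801 were flagged on 2 reads, with 0 in the rest of the group. In ffff242 the genes apart from the rest of the group were Fam107a at 160 CPM, Mndal at 0.142 CPM, Trp53inp1 at 431 CPM and Krt18 at 196 CPM. In DKO247 the genes apart from the rest of the group were Fam107a at 3.24 CPM and Bhlhe41 at 1.52 CPM. In Rab30cff741 the genes apart from the rest of the group were C1s2 at 16.9 CPM, Obp2a at 1.24 CPM, Gm13394 at 350 CPM, Serpinf2 at 827 CPM and Nr1d1 at 94.3 CPM. In Cpt2801 the gene apart from the rest of the group was C1s2 at 0.129 CPM. In ffff240 the genes apart from the rest of the group were Corin at 8.23 CPM, Lipe at 19.3 CPM and Mup8 at 65.3 CPM. In Cpt2164 the genes apart from the rest of the group were B3galnt1 at 0.587 CPM, Dusp1 at 16.5 CPM and Nr1i3 at 97.3 CPM. In Cpt2802 the gene apart from the rest of the group was Tes3-ps at 0.44 CPM. In Rab30cff978 the genes apart from the rest of the group were Smpd3 at 20.02 CPM, Mndal at 7.84 CPM, Itih1 at 1051 CPM, Csf3r at 8.59 CPM and Cela1 at 5.59 CPM. In DKO943 the genes apart from the rest of the group were Mndal at 3.003 CPM and Cyp2c50 at 52.6 CPM. In Cpt2166 the genes apart from the rest of the group were Cyp2g1 at 0.642 CPM, Cyp2c50 at 49.1 CPM and Dnajc3 at 208 CPM. In DKO232 the gene apart from the rest of the group was Mup8 at 54.4 CPM. In ffff238 the gene apart from the rest of the group was mt-Nd3 at 24.2 CPM. In Rab30cff979 the genes apart from the rest of the group were Bmp2 at 12.5 CPM and Hba-a2 at 1.16 CPM.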

How the results depend on the processing

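Against 571 genes called in the interaction (310 above 0 and 261 below), 1080 were called by the Wald test of DESeq2 (601 and 479) and 1294 by limma-voom with quality weights (686 and 608), while an unadjusted p under 0.05 gave 3056 (1563 and 1493), and the fit over 24 livers 374, of which 198 were above 0 and 176 below. Leaving out 1 liver gave between 300 and 679 calls, 156 to 373 above 0 and 144 to 313 below. The other settings stayed within 1.5 times: DESeq2's size factors gave 563, no filter on low counts 477, at least 10 counts in every library 461, and no fold threshold 571. DESeq2's Wald test shared 569 genes with the 571, limma-voom 536 and the fit over 24 livers 344. The cause of these differences was not tested, except that fewer livers or other genes entered some fits. Among the named genes that were called, no interaction reversed in any of these fits. Of 85 called genes named or in a list, 50 were called in each of the 16 fits without 1 liver. The exclusion of the stretch of chromosome 1 was chosen after seeing the data and left 549 calls, 305 above 0 and 244 below. No paired analysis was possible because the labels give the livers of different groups no shared replicate numbers. At this number of livers an interaction of size 1 was often missed on simulated counts.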
